A study of Mus musculus with 20 samples.

Results

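The transcripts described here encode the tumour suppressor p53, its feedback partners and targets, the 3 GADD45 stress proteins and a set of cell cycle regulators, measured in mouse liver. The 10 genes were chosen by symbol: Cdkn1a, Mdm2, Ccng1, Ccnd1, Gadd45a, Gadd45b, Gadd45g, Myc, Trp53 and Cdkn1b. For 9 of them the array had at least 1 probe set (a group of short probes read as 1 value) annotated with that symbol alone, and all 9 passed the filter on low values described below; the Trp53 transcript was not analysed here. They are 9 of the 8774 genes tested and of the 18193 genes with such a probe set. Each gene was represented by its brightest probe set.

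Liver RNA came from 20 male mice, 5 in each of 4 groups: wild type given vehicle, wild type given LPS, MCAD-/- given vehicle and MCAD-/- given LPS. MCAD-/- mice are deficient in medium-chain acyl-CoA dehydrogenase, the product of Acadm, which carries out the first step of beta-oxidation of medium-chain fatty acids in mitochondria. LPS (lipopolysaccharide, from the bacterial outer membrane, which provokes inflammation) was given at 100 µg per 20 g body weight. All mice, controls included, were aged 50 to 60 days, had a mixed BL6/SV129 background, and were fasted for 12 h after the injection. Whether the genotypes were littermates is not given in the sources used here, so genetic background and the loss of MCAD cannot be told apart. The question for these genes was how LPS and the loss of MCAD changed their transcripts, and whether the LPS response differed between genotypes.

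p53 is a transcription factor that is controlled mainly through the stability and activity of its protein, so its own transcript is a poor guide to its activity. It switches on Cdkn1a, which encodes p21, an inhibitor of the cyclin-dependent kinases (CDKs) that drive the cell cycle, and Mdm2, whose product marks p53 for destruction and closes a negative feedback loop. Ccng1 (cyclin G1) is another direct p53 target. The GADD45 proteins bind the kinase MEKK4, CDK1 and proliferating cell nuclear antigen, and their genes answer to stress, DNA damage and inflammatory cytokines. Adult hepatocytes rarely divide, and Cdkn1a and Gadd45b are also known in liver for transcription that does not need p53.

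p53 binds DNA as a tetramer on a pair of decamer half-sites. The 250 bases before the annotated start of each gene were taken from RefSeq (build GRCm38.p6) and searched on both strands with the p53 half-site consensus, the kappaB consensus, TTCNNNGAA (the STAT palindrome), CACGTG (the E-box) and TATAAA. These windows are shown because the genes with the largest LPS changes held different motifs before their starts. Windows were found for 8 of the 10 genes. Capitals mark matches to the p53 half-site in the first 4 windows and TATAAA in the last 2, where the strand given is that of the gene and positions count back from the start.
Cdkn1a, start 1, chr17:29090729-29090978 (+): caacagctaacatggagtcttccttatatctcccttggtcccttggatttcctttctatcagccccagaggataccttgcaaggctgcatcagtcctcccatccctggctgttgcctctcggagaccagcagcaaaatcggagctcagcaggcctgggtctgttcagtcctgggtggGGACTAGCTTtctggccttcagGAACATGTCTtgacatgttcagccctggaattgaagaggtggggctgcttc
Cdkn1a, start 2, chr17:29093519-29093768 (+): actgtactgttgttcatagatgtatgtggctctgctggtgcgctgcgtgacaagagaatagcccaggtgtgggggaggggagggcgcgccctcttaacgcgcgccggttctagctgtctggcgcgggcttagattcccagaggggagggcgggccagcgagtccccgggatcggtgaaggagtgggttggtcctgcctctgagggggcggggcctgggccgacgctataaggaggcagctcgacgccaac
Mdm2, chr10:117710759-117711008 (-): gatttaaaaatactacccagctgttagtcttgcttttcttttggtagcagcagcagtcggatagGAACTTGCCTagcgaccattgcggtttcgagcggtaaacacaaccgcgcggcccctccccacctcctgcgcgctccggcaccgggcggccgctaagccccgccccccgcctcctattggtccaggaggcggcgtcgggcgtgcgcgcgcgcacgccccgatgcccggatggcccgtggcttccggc
Ccng1, chr11:40755287-40755536 (-): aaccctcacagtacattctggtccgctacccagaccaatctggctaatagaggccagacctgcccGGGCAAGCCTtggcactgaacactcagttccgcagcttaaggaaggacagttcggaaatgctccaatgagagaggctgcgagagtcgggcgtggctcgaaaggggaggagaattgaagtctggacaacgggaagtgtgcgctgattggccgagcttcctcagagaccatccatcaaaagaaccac
Gadd45b, chr10:80929841-80930090 (+): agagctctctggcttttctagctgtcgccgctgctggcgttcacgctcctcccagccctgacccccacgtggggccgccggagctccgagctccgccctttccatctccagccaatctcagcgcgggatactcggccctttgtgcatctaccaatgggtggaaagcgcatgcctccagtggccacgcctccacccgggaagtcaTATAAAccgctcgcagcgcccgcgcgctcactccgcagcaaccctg
Gadd45g, chr13:51846425-51846674 (+): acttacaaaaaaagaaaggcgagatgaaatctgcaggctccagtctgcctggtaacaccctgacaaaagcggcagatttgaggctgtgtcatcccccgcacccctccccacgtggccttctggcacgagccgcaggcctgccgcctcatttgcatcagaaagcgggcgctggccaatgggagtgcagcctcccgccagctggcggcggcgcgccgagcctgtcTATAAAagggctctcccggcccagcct

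The first Cdkn1a window held 2 half-site matches, at positions -73 and -51, and the window of its second start held none. Mdm2 had 1 match at -186 and Ccng1 1 at -185. Of the 9 member windows 5 held a match, against 7.13% of the 32851 windows of that length in the table, and the genes were Cdkn1a, Mdm2, Ccng1, Gadd45a and Trp53. Gadd45b and Gadd45g each held CACGTG, at -185 and -142, and TATAAA, at -46 and -27. CACGTG stood in 6.02% of all windows and TATAAA in 12.4%. The kappaB consensus (7.25% of all windows) and TTCNNNGAA (7.02%) had 0 matches in the member windows. A match is a description of the letters and not a measured site.

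Values are intensities on a linear scale, called units below, and changes are differences of group means of log2 units ± their standard error (SE), with 5 mice a group. GCRMA, the method that made them, pulls dim probe sets towards a floor. Levels under 16 units were therefore treated as unmeasured, genes entered the tests with over 16 units on 5 or more arrays, and a fold against a group with every mouse under 16 units is given as "at least". An adjusted p is a Benjamini-Hochberg value over 8774 genes from 1 limma model of the 4 groups, two-sided with a threshold of 0.05. Between 30.18% and 32.28% of probe sets exceeded 16 units on each array, 0 pairs of arrays were identical, and Acadm read 9.03 to 218 units in MCAD-/- mice against 1450 to 4022 in wild type. Wild type LPS replicate 4 and wild type vehicle replicate 3 had the highest actin control ratios of 3' to 5' probes (3.69 and 3.18 on the log2 scale, with the third highest at 2.34), a sign of RNA quality, and calls of the 9 genes that change without them are given below.

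With LPS, 4 of the 9 genes rose in wild type mice (Cdkn1a, Gadd45g, Ccng1 and Mdm2) and 0 fell, against 64% of all genes tested that changed. In MCAD-/- mice 6 rose, the same 4 with Gadd45b and Gadd45a, and 0 fell, against 65.7%. Gadd45a passed the filter only through the LPS groups, so counting it as risen follows in part from the filter. LPS moved most of the array, so the counts of changed members do not stand above the share of all genes that changed. Those that rose, 4 and 6 of the 9, stand beside 40% and 38.1% of all genes that rose. Over all genes 3507 rose and 2107 fell in wild type, a split that became 2760 and 2662 when each array was centred on its median. The median log2 change over the 9 genes was 0.44 in wild type and 0.99 in MCAD-/-, beside 0.18 and 0.14 over all genes tested. Between genotypes 3 of the 9 differed with vehicle (16.2% of all genes) and 2 with LPS (20.6%), and 1 had a different LPS response in the 2 genotypes (4.11%). The plot of member values by mouse and the plot of member changes show all of these.

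**Figure D1:**
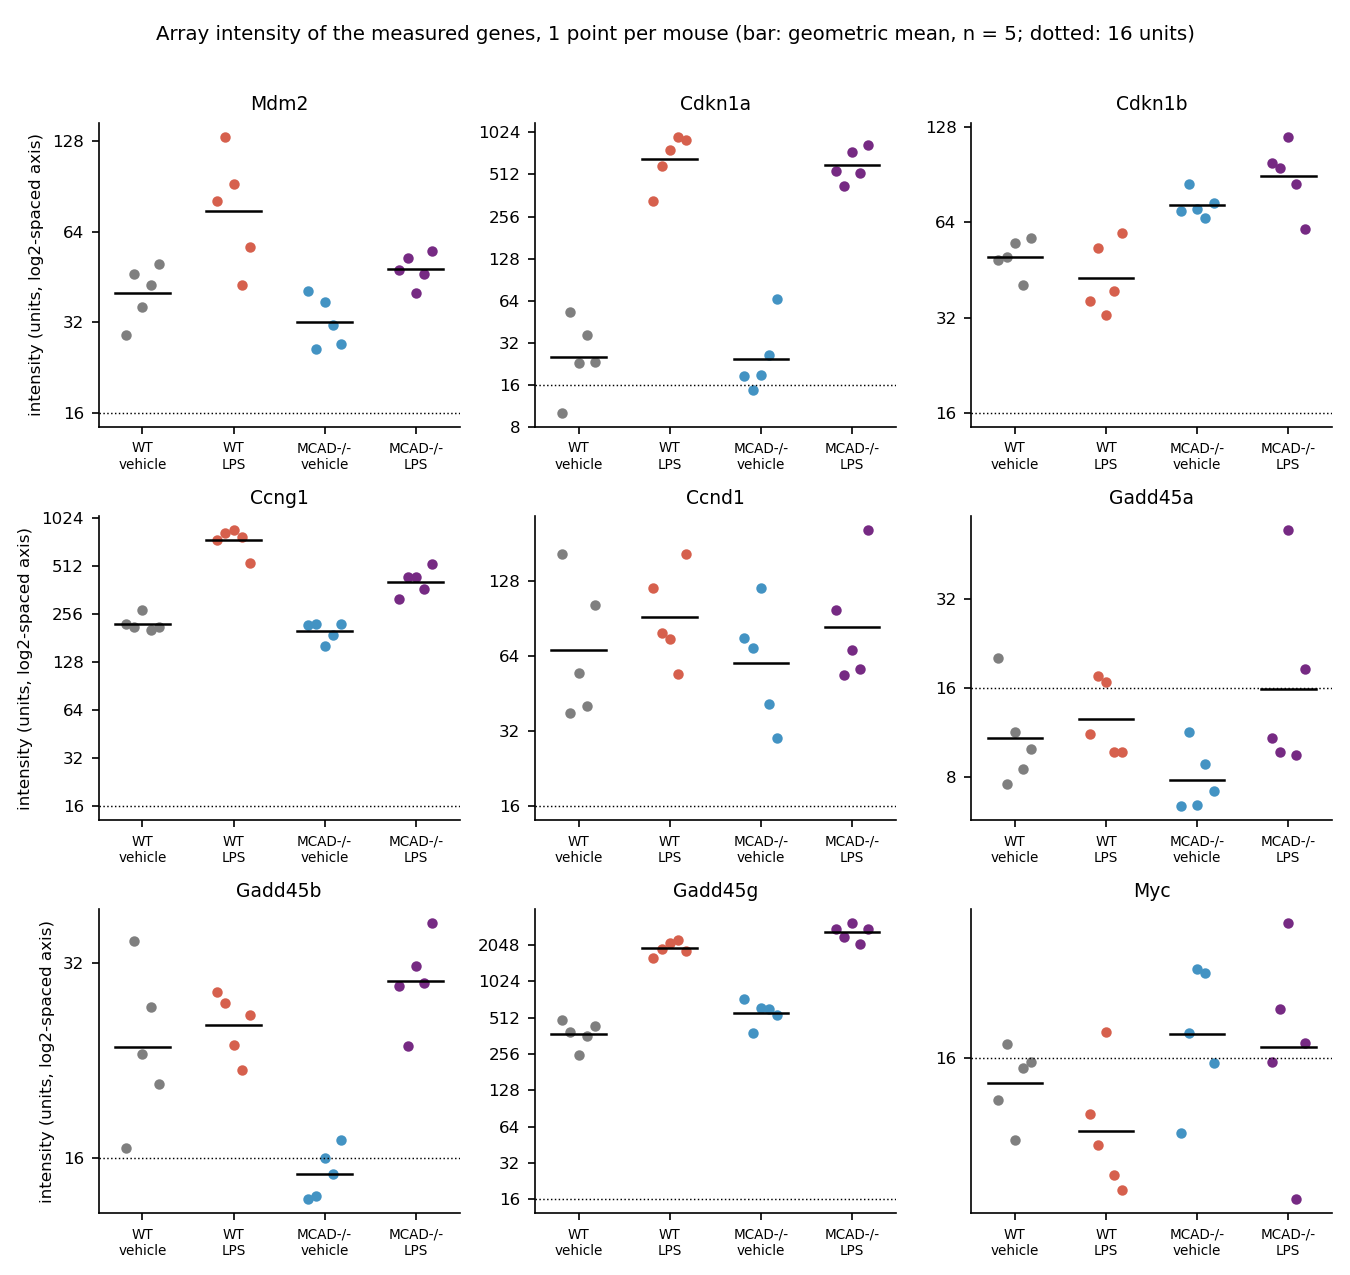
Intensity of 9 genes in each of 20 livers, on a log2 axis in units, with 1 panel per gene, points for mice and bars for the group mean of log2 values in wild type and MCAD-/- mice given vehicle or LPS. Cdkn1a, Ccng1 and Gadd45g separate LPS from vehicle in both genotypes, Cdkn1b separates the genotypes, and Ccnd1 and Myc overlap throughout.

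Cdkn1a, the gene of the CDK inhibitor p21, had the largest LPS change of the 9 genes. Wild type mice with vehicle read 10.02, 53.01, 23.0, 36.3 and 23.3 units, and those with LPS 333, 593, 767, 957 and 905. MCAD-/- mice with vehicle read 18.5, 14.6, 18.7, 26.0 and 65.4 units, and those with LPS 544, 423, 737, 525 and 837. Every LPS mouse was above every vehicle mouse in both genotypes, a separation that 3 of the 9 genes showed in wild type (Cdkn1a, Ccng1 and Gadd45g; 46.1% of all genes) and 4 in MCAD-/- (these with Gadd45b; 51.4%), and the genotypes overlapped under either injection. The rise was 4.72 ± 0.41 log2 in wild type, 26.3-fold (adjusted p = 8.44e-09), and 4.61 ± 0.41 in MCAD-/-, 24.4-fold (adjusted p = 1.01e-08). The vehicle levels lay near 16 units, and with 16 added to every value before the log the rises were 4.00 and 3.88; with probe sets averaged the MCAD-/- rise was 3.70. The difference between genotypes was -0.05 log2 with vehicle (95% interval -0.92 to 0.81, adjusted p = 0.955) and -0.16 with LPS (-1.03 to 0.70, adjusted p = 0.826). The interaction, which subtracts the wild type LPS response from the MCAD-/- one, was -0.11 ± 0.58 (-1.33 to 1.11, adjusted p = 0.94), an interval wide enough to hold a difference of 2-fold either way. With probe sets averaged the interaction was -0.79 and did not pass either.

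A second Cdkn1a probe set (1421679_a_at, dimmer than the brightest, 1424638_at) gave another picture of the genotypes under LPS. It read 103, 289, 208, 216 and 288 units in wild type with LPS and 49.9, 37.9, 112, 31.1 and 64.1 in MCAD-/- with LPS. The groups met in 1 mouse a side: the highest MCAD-/- mouse stood above the lowest wild type mouse. With all 15748 probe sets past the filter fitted on their own, 18.1% differed between genotypes with LPS, and this one was 3.92-fold lower in MCAD-/- (-1.97 ± 0.34 log2, adjusted p = 0.000349). With LPS it rose at least 3.315-fold in MCAD-/-, where every vehicle mouse lay under 16 units, and 4 of the 5 wild type vehicle mice did so too, so that no size is given for the difference in response; the interaction did not pass (adjusted p = 0.0985; 3.07% of probe sets passed). Which transcripts each probe set reads is not given in the sources used here, so the genotype difference of Cdkn1a with LPS depended on the probe set.

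Mdm2, which encodes the ubiquitin ligase of p53, rose with LPS in both genotypes, and its groups overlapped. Wild type mice with vehicle read 29.1, 46.3, 35.9, 42.7 and 50.1 units, and those with LPS 81.3, 133, 92.6, 42.5 and 57.1. MCAD-/- mice read 40.6, 26.2, 37.4, 31.3 and 27.1 with vehicle and 47.9, 52.5, 40.1, 46.4 and 55.4 with LPS. In wild type, LPS replicates 1, 2, 3 and 5 stood above every vehicle mouse and replicate 4 lay inside the vehicle range. The rise was 0.91 ± 0.23 log2 in wild type (1.88-fold, adjusted p = 0.00189) and 0.59 ± 0.23 in MCAD-/- (1.504-fold, adjusted p = 0.0308). The MCAD-/- call was lost in 7 of 31 other settings: after median centring or quantile normalization (adjusted p = 0.0746 and 0.0783) and without any of MCAD-/- vehicle replicates 2, 4 and 5 and MCAD-/- LPS replicates 2 and 5 (adjusted p = 0.0512 to 0.0749). Between genotypes the differences were -0.32 log2 with vehicle (adjusted p = 0.38) and -0.65 with LPS (adjusted p = 0.053). The second passed in 8 of 31 other settings, among them without the 2 arrays of highest actin ratio (-0.85, adjusted p = 0.00798) and without wild type LPS replicate 4 (-0.85, adjusted p = 0.00713), LPS replicate 5 (-0.74, adjusted p = 0.0347) or vehicle replicate 1 (-0.65, adjusted p = 0.0484).

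The second Mdm2 probe set (1423605_a_at) varied less within groups. It read 22.2, 23.5, 24.8, 21.9 and 27.2 units in wild type with vehicle and 53.2, 56.5, 76.1, 67.5 and 50.1 with LPS. In MCAD-/- mice it read 26.6, 23.9, 22.6, 24.0 and 23.1 units with vehicle and 38.6, 34.8, 43.5, 40.8 and 45.6 with LPS. Here no LPS mouse overlapped a vehicle mouse in either genotype, and every wild type LPS mouse stood above every MCAD-/- LPS mouse. In the fit of each probe set it rose 2.51-fold in wild type (adjusted p = 1.19e-08; 59.3% of probe sets passed) and 1.69-fold in MCAD-/- (adjusted p = 1.4e-05; 60.5%). With LPS it was 1.48-fold lower in MCAD-/- (-0.57 ± 0.11 log2, adjusted p = 0.00172), and its interaction of -0.57 ± 0.16 did not pass (adjusted p = 0.0603).

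Ccng1, the gene of cyclin G1, rose with LPS in both genotypes and reached a lower level in MCAD-/- mice. Wild type mice with vehicle read 223, 211, 273, 203 and 212 units, and those with LPS 741, 828.8, 863, 780 and 537. MCAD-/- mice with vehicle read 219, 221, 161, 188 and 221 units, and those with LPS 317, 434, 437, 365 and 524. The vehicle groups overlapped, and with LPS the lowest wild type mouse (537) stood just above the highest MCAD-/- mouse (524). The rise was 1.73 ± 0.15 log2 in wild type (3.32-fold, adjusted p = 5.83e-09) and 1.03 ± 0.15 in MCAD-/- (2.04-fold, adjusted p = 5.02e-06). With probe sets averaged the rise was 2.05 in wild type and 1.73 in MCAD-/-. With LPS Ccng1 was 1.81-fold lower in MCAD-/- (-0.85 ± 0.15 log2, adjusted p = 0.000337), and with vehicle the difference was -0.15 (adjusted p = 0.537).

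The LPS response of Ccng1 itself was not shown to differ between genotypes. The interaction was -0.70 ± 0.21 log2 (adjusted p = 0.0608) and passed in 7 of 31 other settings, among them without wild type vehicle replicate 3, wild type LPS replicate 5, MCAD-/- vehicle replicate 3 or MCAD-/- LPS replicate 5 (adjusted p = 0.0193 to 0.0435). The other Ccng1 probe sets gave interactions of -0.33 (1450016_at, adjusted p = 0.537) and 0.07 (1450017_at, adjusted p = 0.918). Both were also lower in MCAD-/- with LPS, by -0.60 log2 (adjusted p = 0.0242) and -0.54 (adjusted p = 0.045), and 1450017_at was lower with vehicle too (-0.62, adjusted p = 0.0299; 13.4% of probe sets passed). All 3 probe sets of Ccng1 were therefore lower in MCAD-/- mice with LPS.

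**Figure D2:**
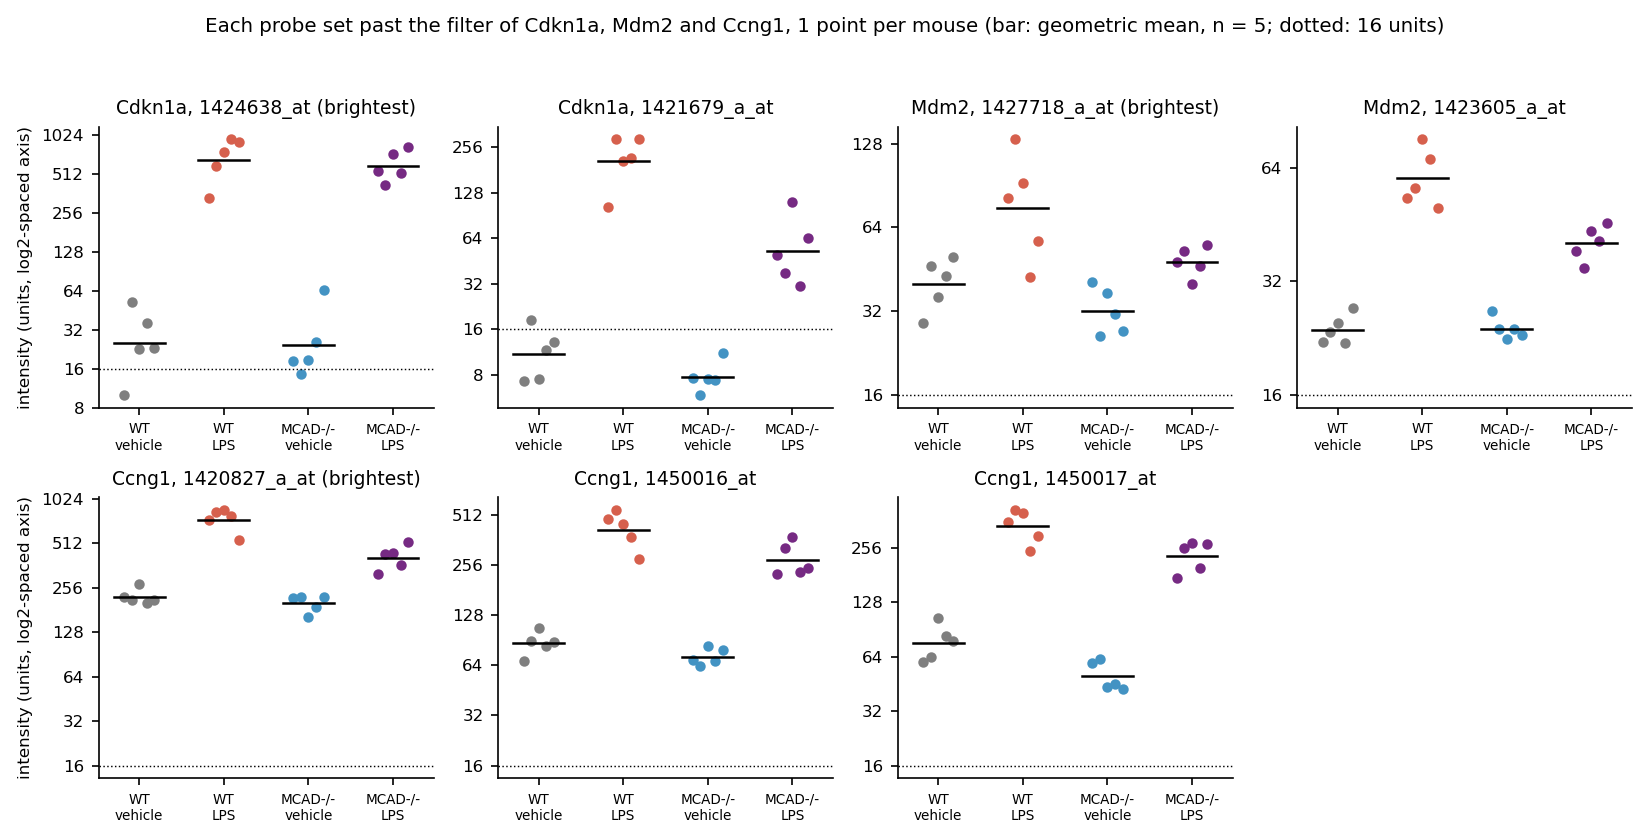
Intensity in units on a log2 axis for each probe set past the filter of Cdkn1a (2), Mdm2 (2) and Ccng1 (3), with points for the 20 mice by group and bars for the mean of log2 values. Probe sets of 1 gene share the LPS rise. With LPS the mean in MCAD-/- mice is 3.92-fold lower than in wild type on 1421679_a_at of Cdkn1a and 1.12-fold lower on 1424638_at. The 2 groups overlap on both.

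**Figure D3:**
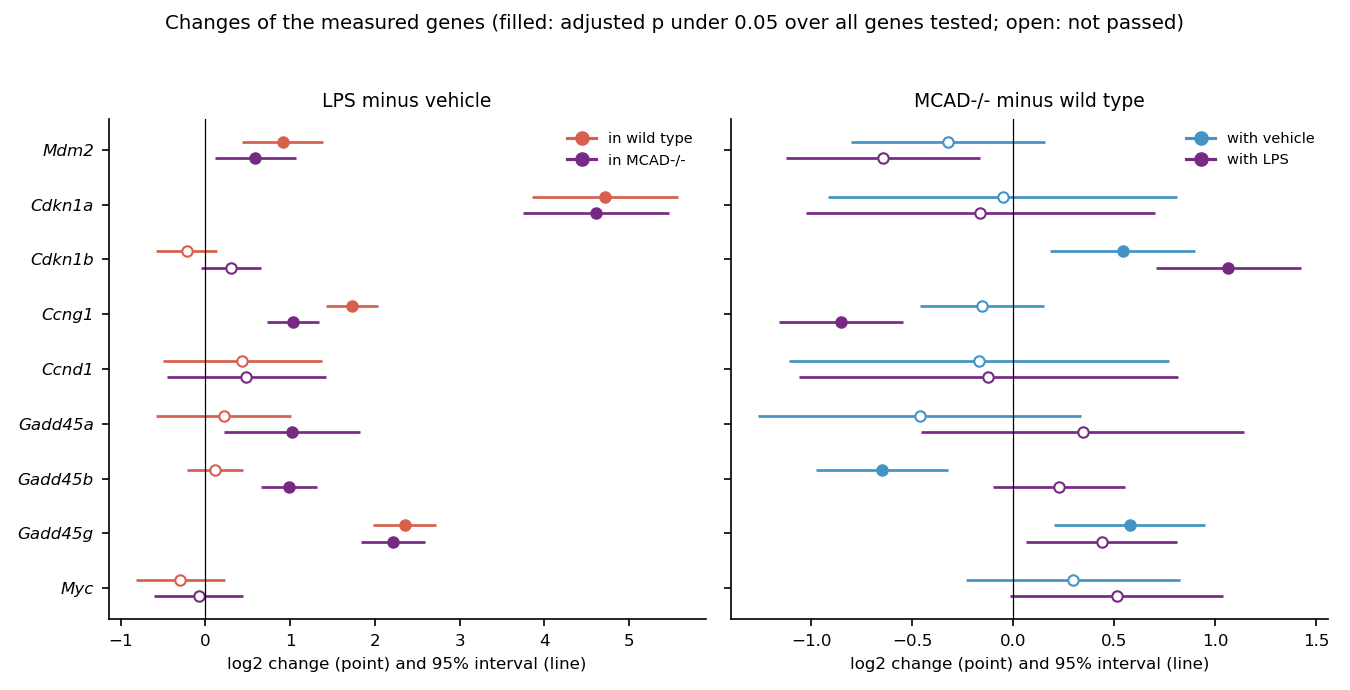
Log2 change with its 95% interval for each of the 9 genes: LPS against vehicle in wild type and in MCAD-/- mice in the left panel, and MCAD-/- against wild type with vehicle and with LPS in the right panel. Cdkn1a stands farthest from 0 in the left panel at 4.72 and 4.61, and Cdkn1b with LPS farthest above 0 in the right panel at 1.06.

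Gadd45g, whose product binds MEKK4 and takes part in stress kinase signalling, was the member with the second largest LPS change. Wild type mice with vehicle read 491, 388, 249, 363 and 439 units, and those with LPS 1591, 1904, 2112, 2261 and 1815. MCAD-/- mice read 729, 383, 617, 601 and 538 units with vehicle and 2787, 2379, 3111, 2091 and 2773 with LPS. LPS and vehicle mice did not overlap in either genotype, while the genotypes overlapped under both injections. The rise was 5.11-fold in wild type (2.35 ± 0.18 log2, adjusted p = 1.18e-09) and 4.64-fold in MCAD-/- (2.21 ± 0.18, adjusted p = 2.37e-09), with an interaction of -0.14 (adjusted p = 0.814). With vehicle Gadd45g was 1.49-fold higher in MCAD-/- (0.58 ± 0.18, adjusted p = 0.0325), and this call was lost in 9 of 32 other settings. Among them were median centring (adjusted p = 0.0501), a fit of the compared groups alone (adjusted p = 0.0724), leaving out the 2 arrays of highest actin ratio (0.43, adjusted p = 0.0792) and leaving out wild type vehicle replicate 2, 3 or 4 or MCAD-/- vehicle replicate 1, 3 or 4 (adjusted p = 0.0543 to 0.099). With LPS the difference was 0.44 (adjusted p = 0.09), which passed without wild type vehicle replicate 3 (adjusted p = 0.048) and without those 2 arrays (adjusted p = 0.0366).

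Gadd45b, a paralogue induced by inflammatory cytokines, differed between genotypes with vehicle and in its response to LPS. Wild type mice read 16.6, 34.7, 23.2, 27.4 and 20.8 units with vehicle and 28.8, 27.8, 23.9, 21.9 and 26.6 with LPS, and these groups overlapped. MCAD-/- mice read 13.8, 14.0, 16.02, 15.1 and 17.1 units with vehicle and 29.5, 23.8, 31.6, 29.8 and 36.9 with LPS, and these did not. Gadd45b rose 1.98-fold in MCAD-/- (0.99 ± 0.16 log2, adjusted p = 1.78e-05) and changed by 0.11 in wild type (adjusted p = 0.554). With vehicle it was 1.57-fold lower in MCAD-/- (-0.65 ± 0.16, adjusted p = 0.00718), and with LPS the difference was 0.23 (adjusted p = 0.335). The interaction was 0.88 ± 0.22 (adjusted p = 0.0294), and this call was lost in 6 of 29 other settings. These were without the 2 arrays of highest actin ratio (adjusted p = 0.0623) and without wild type vehicle replicate 4, wild type LPS replicate 4, MCAD-/- vehicle replicate 1 or 2, or MCAD-/- LPS replicate 5 (0.80 to 0.85 log2, adjusted p = 0.0523 to 0.0595). The gene was dim: the MCAD-/- vehicle mice lay at the 16-unit level, with 2 of 5 above it, so the folds against that group depend on the floor.

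Gadd45a, the DNA damage-inducible paralogue, was at the edge of measurement. It exceeded 16 units on 5 of 20 arrays, the fewest that the filter allows, and on 0 arrays of MCAD-/- mice with vehicle. Those mice read 6.35 to 11.4 units, and the MCAD-/- mice with LPS read 10.8, 9.73, 55.1, 9.48 and 18.6. The adjusted p for this LPS comparison was 0.0245, but 2 of 5 mice carried it, and no fold is given because the bound was under 1. The call was lost in 5 of 31 other settings. These were without MCAD-/- LPS replicate 3, at 55.1 units (adjusted p = 0.08), without MCAD-/- vehicle replicate 1 or 3 (adjusted p = 0.0532 and 0.0521), with array weights, and in a fit of the compared groups alone. In wild type the mice read 7.54 to 20.3 units with vehicle and 9.67 to 17.6 with LPS (change 0.22, adjusted p = 0.638).

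Cdkn1b, the gene of the CDK inhibitor p27, differed between genotypes under both injections and did not pass the test for LPS. Wild type mice read 48.8, 49.5, 55.2, 40.5 and 56.9 units with vehicle and 36.1, 53.1, 32.7, 38.7 and 59.0 with LPS. MCAD-/- mice read 69.4, 84.3, 70.3, 66.2 and 73.6 units with vehicle and 98.3, 94.5, 119, 84.6 and 61.1 with LPS. Under each injection every MCAD-/- mouse stood above every wild type mouse. The genotypes did not overlap for 1 of the 9 genes with vehicle, Cdkn1b (13.8% of all genes), and for 2 with LPS, Cdkn1b and Ccng1 (12.8%). Cdkn1b was 1.46-fold higher in MCAD-/- with vehicle (0.54 ± 0.17 log2, adjusted p = 0.0365) and 2.09-fold higher with LPS (1.06 ± 0.17, adjusted p = 0.000168). The vehicle call was lost in 9 of 32 other settings: with probe sets averaged (adjusted p = 0.306) and without wild type vehicle replicate 1, 2 or 4 or any 1 of the 5 MCAD-/- vehicle mice (adjusted p = 0.0511 to 0.103). The LPS call held in all 32. LPS itself changed Cdkn1b by -0.22 in wild type (adjusted p = 0.272) and 0.30 in MCAD-/- (adjusted p = 0.127; 0.0237 without MCAD-/- LPS replicate 5), and the interaction was 0.52 (adjusted p = 0.235).

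Ccnd1 and Myc, which drive entry into the cell cycle, did not pass any of the tests. Ccnd1, the gene of cyclin D1, ranged from 30.2 to 205 units and varied widely inside every group. It read 164, 37.7, 54.6, 40.5 and 102 units in wild type with vehicle and 120, 79.0, 74.8, 54.3 and 165 with LPS. Its LPS change was 0.44 log2 in wild type (95% interval -0.50 to 1.38, adjusted p = 0.407) and 0.48 in MCAD-/- (-0.46 to 1.42, adjusted p = 0.357), so a rise of over 2-fold was not excluded by the interval. Myc, a transcription factor of growth genes, was dim, above 16 units on 8 of 20 arrays. It read 9.14 to 17.8 units in wild type with LPS and 8.78 to 28.3 in MCAD-/- with LPS, with LPS changes of -0.29 (adjusted p = 0.319) and -0.08 (adjusted p = 0.793). Between genotypes with LPS Myc differed by 0.51 (adjusted p = 0.164), and by 0.74 without MCAD-/- LPS replicate 4 (adjusted p = 0.0242).

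Markers of other cells moved with some of these groups. In bulk tissue, fewer cells of a type and less RNA per cell cannot be told apart. Of 10 neutrophil and infiltrating myeloid markers on the array, 4 were tested and all 4 rose with LPS in both genotypes (40% and 38.1% of all genes rose), while 6, Mpo, Elane, Ltf, Cxcr2, Csf3r and Mmp9, stayed under 16 units on every array. The summed level of the list was 56.4 to 129 units in wild type with vehicle, 1885 to 3983 with LPS, 50.4 to 227 in MCAD-/- with vehicle and 2760 to 3290 with LPS. With vehicle sums this low over 10 markers, some of the 4 may have passed the filter only through the LPS groups. Counting all 4 as risen may therefore follow in part from the filter. MCAD-/- vehicle replicate 5, the mouse at 227, was the highest of its group for Cdkn1a (65.4 units), while in wild type the mice with the highest sums, vehicle replicate 1 and LPS replicate 1, were the lowest of their groups for Cdkn1a (10.02 and 333 units). The part of these cells in the LPS changes of Cdkn1a, Ccng1 and Gadd45g was not tested.

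Between genotypes with vehicle, 9 of 10 tested endothelial, 6 of 9 Kupffer cell and 4 of 7 stellate cell markers were higher in MCAD-/- (9.81% of all genes were). The endothelial sum was 565 to 1143 units in wild type and 1638 to 2289 in MCAD-/- with vehicle, and 795 to 1362 and 609 to 1104 with LPS. The Kupffer cell sum was 947 to 1737 and 1708 to 2439 units with vehicle and 524 to 1096 and 608 to 1227 with LPS, and the stellate cell sum 1079 to 1887 and 1963 to 2263 with vehicle and 714 to 2106 and 1814 to 2244 with LPS. Pecam1, Col1a1 and Des lay under 16 units on every array, as did all 8 lymphocyte and all 4 cholangiocyte markers. With LPS the endothelial and Kupffer cell sums overlapped between genotypes, and 4 of the 5 wild type mice lay below every MCAD-/- mouse in the stellate cell sum. Gene by gene, 0 of the 7 tested stellate cell markers were higher in MCAD-/- with LPS and 2 were lower. For endothelial markers these counts were 0 and 2, and for Kupffer cell markers 0 and 0 (8.75% and 11.8% of all genes). The part of these cells in the genotype differences of Gadd45b, Gadd45g, Cdkn1b and Ccng1 was not tested. Hepatocyte markers, which check the tissue label, summed to 101800 to 115100 units in vehicle mice and 91730 to 98720 in LPS mice, with no overlap. Of the 9 tested, 5 fell and 1 rose with LPS in each genotype, and the part of this shift in the LPS changes was not tested.

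Other genes of the pathway were followed through lists that leave out the 10 genes. Of 18 tested p53 target genes (25 named), 10 rose and 1 fell with LPS in wild type (median log2 change 0.65) and 7 rose and 4 fell in MCAD-/- (median 0.14), beside 40% and 38.1% of all genes that rose and 24% and 27.6% that fell. Phlda3, Apaf1, Polk and Zmat3 passed the filter only through the LPS groups. Every vehicle mouse lay under 16 units for Phlda3 and Apaf1, and the median vehicle mouse of each genotype did for Polk and Zmat3. Counting these as risen follows in part from the filter. Aen, a p53-induced nuclease, rose 12.6-fold in wild type (adjusted p = 2.03e-09) and 10.2-fold in MCAD-/- (adjusted p = 5.84e-09), or 1.84 and 1.46 log2 with its probe sets averaged against 3.65 and 3.35. Phlda3, an inhibitor of AKT, rose at least 5.67-fold in wild type, from 6.04 to 9.04 units with vehicle to 50.3 to 125 with LPS. In MCAD-/- mice Phlda3 went from 7.94 to 12.3 units with vehicle to 12.9 to 32.8 with LPS, at least 1.24-fold. Zmat3, an RNA-binding zinc finger gene, rose 3.73-fold in wild type and 2.01-fold in MCAD-/-, from vehicle levels near 16 units.

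For 3 p53 targets the fitted LPS response was smaller in MCAD-/- mice and passed the interaction test: Phlda3 (-2.55 log2, adjusted p = 0.000234), Polk (-1.03, adjusted p = 0.0296) and Zmat3 (-0.89, adjusted p = 0.0266). The vehicle mice lay under 16 units for Phlda3 in both genotypes and for Polk in wild type, and near it for Zmat3, so these sizes depend on the floor and are not measured differences of response. None of the 18 had a larger response that passed, and over all genes 2.76% passed with a smaller and 1.36% with a larger one. The count of 3 fell to 1, Phlda3, without MCAD-/- vehicle replicate 1 or replicate 2. With LPS, 5 of the 18 were lower in MCAD-/- (11.8% of all genes): Fas, the death receptor (1.86-fold, adjusted p = 0.000422), Zmat3 (1.74-fold, adjusted p = 0.00111), Phlda3 (4.58-fold, adjusted p = 2.82e-06), Perp and Polk. In the same comparison 3 were higher (8.75% of all genes): Btg2, an antiproliferative gene, Plk3 and Apaf1. With vehicle 2 were higher, Trp53inp1 and Plk3, and 0 lower (9.81% and 6.39% of all genes).

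**Figure D4:**
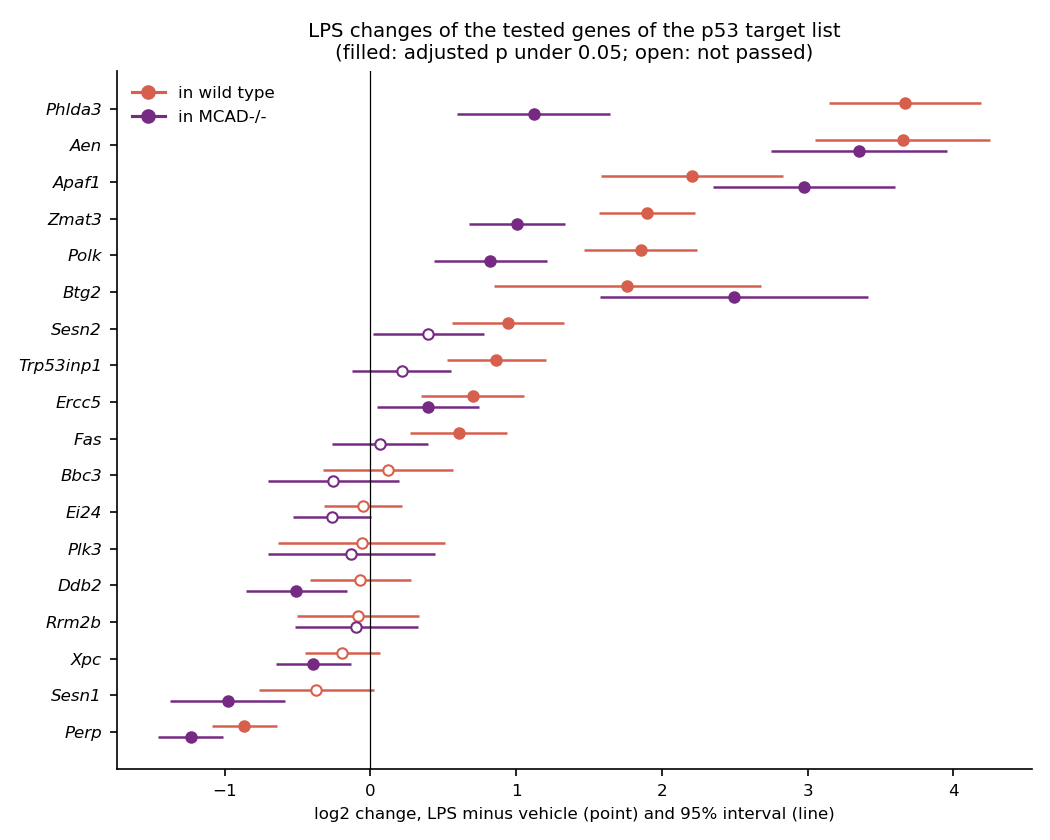
Fitted log2 LPS change of 18 p53 target genes in wild type and in MCAD-/- mice, with 95% intervals, 1 row per gene. Phlda3, Zmat3 and Polk lie farther right in wild type than in MCAD-/-, while Aen lies near the same place in both.

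Of 14 tested regulators of p53, 6 rose and 4 fell with LPS in wild type and 5 rose and 5 fell in MCAD-/-, shares near those of all genes (40% and 24%, and 38.1% and 27.6%). Trp53bp1, a DNA damage adaptor, rose 4.25-fold and 3.03-fold, and Mdm4, the partner of MDM2, fell 1.69-fold and 1.44-fold. Hipk2, a kinase of p53, fell 1.87-fold and 1.97-fold. Trp63, a relative of p53, passed in both genotypes from vehicle levels under 16 units and rose at least 1.75-fold in MCAD-/-, with no fold in wild type. Trp63 entered the tests only through the LPS groups, so counting it as risen follows in part from the filter. Between genotypes Sirt1, a deacetylase that acts on p53, was 1.64-fold higher in MCAD-/- with vehicle (adjusted p = 0.00502) and 2.12-fold higher with LPS (adjusted p = 8.24e-05).

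Around the CDK inhibitors, 11 cyclin, CDK and activator genes were tested, of which 6 rose and 2 fell with LPS in each genotype, beside 40% and 24% of all genes in wild type and 38.1% and 27.6% in MCAD-/-. Ccne1, Cdc25a and Skp2 passed the filter only through the LPS groups, as every vehicle mouse lay under 16 units. Counting these as risen follows in part from the filter. Wee1, the kinase that restrains CDK1, fell 5.24-fold in wild type (-2.39 log2, or -1.51 with 16 added) and at least 2.48-fold in MCAD-/-. Cks1b, which helps to mark p27 for destruction, rose 1.48-fold and 1.87-fold. With LPS 3 of the 11 were lower in MCAD-/- (11.8% of all genes) and 0 higher: Cdc25a, Cks2 and Wee1. The Cks2 call (adjusted p = 0.0152) was lost in a fit of the compared groups alone and without MCAD-/- LPS replicate 3 (adjusted p = 0.0787 and 0.0504). The Wee1 call (adjusted p = 0.0484) was lost in 20 of 31 other settings, and every MCAD-/- LPS mouse lay under 16 units. Of 9 tested CDK inhibitor, RB and E2F genes, 2 rose and 3 fell in wild type, and 3 rose and 3 fell in MCAD-/-, again near the shares of all genes. Tfdp2, an E2F partner, fell 4.38-fold and 3.96-fold (-2.13 and -1.99 log2, or -1.12 and -1.14 with probe sets averaged), and Rbl2, an RB relative, fell 2.83-fold and 1.70-fold and was 1.83-fold higher in MCAD-/- with LPS (adjusted p = 0.000877).

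Around Myc, 14 target genes of ribosome and polyamine synthesis were tested: 10 rose and 0 fell with LPS in wild type, and 9 rose and 0 fell in MCAD-/-. Of all genes 40% and 38.1% rose and 24% and 27.6% fell. Bop1, a ribosome assembly gene, rose 2.42-fold and 1.87-fold (1.28 log2 in wild type, or 0.49 with probe sets averaged), Nop56 2.14-fold and 1.83-fold, and Cad, of pyrimidine synthesis, at least 2.31-fold and 2.36-fold. For Cad every wild type vehicle mouse and the median MCAD-/- vehicle mouse lay under 16 units. Cad passed the filter only through the LPS groups, so counting it as risen follows in part from the filter. The Myc transcript did not pass in either genotype. Of 8 network factors, 1 rose and 1 fell in each genotype, and Mxi1, an antagonist of Myc, fell 2.94-fold and 2.02-fold. The 1 that rose in MCAD-/- was Mxd1, which passed the filter only through the LPS groups, as every vehicle mouse lay under 16 units. Of 7 kinases that GADD45 proteins act through, Map2k3 fell 1.87-fold and 1.77-fold, Map2k6 fell at least 1.14-fold and at least 1.70-fold, and Map2k4 rose 1.33-fold and 1.36-fold.

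The genes most like each member over the 20 arrays are given by Pearson's r of log2 values, as a description; the arrays share the 4 groups, and r mostly follows the group means. For Cdkn1a they were Sod2 (0.98), Upf2 (0.978) and Rpn1 (0.97), for Ccng1 Zmat3 (0.977), Rrp36 (0.964) and Bco1 (0.959), and for Gadd45g Fpr2, Cldn14 and Tinf2 (0.974 to 0.976). Mdm2 was most like Elavl1, Taf12 and Stip1 (0.879 to 0.891), and Cdkn1b most like Amacr, Tceanc2 and Zbtb17 (0.846 to 0.854). Gadd45b was most like Pnp, Msmo1 and Srebf2 (0.832 to 0.834). No gene reached 0.8 for the dim or variable members: the highest were Rbm12 for Gadd45a (0.77), Rbm33 for Myc (0.738) and 3110082I17Rik for Ccnd1 (0.686). Among the members, Cdkn1a and Gadd45g had r = 0.918 over the 20 arrays and 0.0919 after each group's mean was removed.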

How the data were processed

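The authors deposited linear intensity values for 45101 probe sets, made with GCRMA per the submitters' processing notes. Neither its version nor the genome build behind the probe sets is given in the sources used here. GCRMA normalizes between arrays, so a shift of all transcripts would not be seen. Platform annotation gave 34945 probe sets 1 gene symbol, 932 several and 9160 none listed; by gene ID 34741 matched RefSeq (GRCm38.p6), with 0 changed symbols. The 64 control probe sets were left out.

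Values were taken to log2 with no pseudocount. A model with the 4 groups was fitted with limma 3.58.1 in R 4.3.3 to 8774 genes and tested on simulated data. The groups and replicate numbers come from the labels. The named genes are the 10 members, per list the 3 smallest adjusted p for LPS and the 2 smallest between genotypes, 3 most correlated genes per member, and Acadm; further list genes in the text were chosen with their values in view. The members and lists were chosen with earlier results of these data known. The series design calls the mice biological replicates; their number limits precision. Motifs were searched with Python 3.11.15. There were 32 alternative settings: filters, probe set rules, scaling, pseudocount, priors, weights, the replicate block, fits of the compared groups alone, 2 arrays left out, and each mouse left out. Trp53 was not analysed here.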

Additional observations from a re-analysis of the deposited data

Results flagged for a closer look

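Gadd45b was singled out because its LPS effect differed between the genotypes in the test of the difference itself: the response in MCAD-/- exceeded that in wild type by 0.876 on the log2 scale (limma adjusted p = 0.0294). It was higher with LPS than every vehicle mouse in 5 of 5 MCAD-/- mice, and the wild type groups overlapped. In 36 groups of 5 mice (9 genes, 4 groups), 0 had a single mouse far enough from the others to be singled out, where chance gives about 1 in 20.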

How the results depend on the processing

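The members that rose with LPS in wild type stayed at 4 under 31 of the 32 alternatives and were 3 under the stricter filter (64 units), where fewer were tested. Of the members called, Gadd45a, Gadd45b, Mdm2, Gadd45g and Cdkn1b each lost a call somewhere, as given above, and the other calls held in all settings that tested them. Under that filter 3 members rose in MCAD-/- and 0 had an interaction. With probe sets averaged, 1 member differed between genotypes with vehicle (Gadd45g), 4 with LPS (Mdm2, Cdkn1a, Cdkn1b and Ccng1) and 0 in the interaction. Gadd45b did not pass the filter under either of these settings, so the counts of 0 hold no test of its interaction. The interaction count was 2 (Ccng1 and Gadd45b) with log2 of the value plus 16, with a trended and robust prior and with array weights. Without the 2 arrays of highest actin ratio 4 members differed between genotypes with LPS (Mdm2, Cdkn1b, Ccng1 and Gadd45g) and 0 in the interaction. With each mouse left out in turn, 1 to 3 members differed between genotypes with vehicle and 0 to 2 in the interaction.

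Values that turned sign were short of the threshold except E2f6 between genotypes with LPS, called lower at -0.59 (adjusted p = 0.014) and 0.19 with probe sets averaged (adjusted p = 0.19). Centring arrays on their median lowered the median LPS change of all genes in wild type from 0.18 to 0.02. The LPS change of Gadd45b in wild type then was -0.044, after quantile normalization it was -0.073, and leave-one-out values ran from -0.0202 to 0.25. Array weights gave -0.14 for Gadd45a between genotypes with LPS and interactions of 0.21 for Cdkn1a and -0.20 for Ccnd1. Without the 2 arrays the interactions were 0.0562 for Cdkn1a, -0.0654 for Ccnd1 and 0.0686 for Gadd45g. Averaged probe sets gave E2f6 0.18 and Mxi1 -0.11 between genotypes with vehicle. The causes were not tested. Leave-one-out ranges were -0.27 to 0.15 for the LPS change of Myc in MCAD-/-, -0.41 to 0.21 for Cdkn1a and -0.42 to 0.15 for Ccnd1 between genotypes with vehicle, and -0.45 to 0.0891 for Ccnd1 and -0.10 to 0.53 for Gadd45a with LPS. For the interaction they were -0.38 to 0.25 for Cdkn1a, -0.28 to 0.30 for Ccnd1 and -0.28 to 0.0101 for Gadd45g.

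The replicate numbers share nothing in the labels beyond the number. Deviations of same-numbered mice correlated from -0.249 to 0.353 over 30 pairs, and 6 of 20 arrays correlated best with their own number. With the replicate number as a block the member counts were 4 and 6 for LPS, 3 and 2 between genotypes and 1 in the interaction, and no member's call changed. Of the p53 targets, an alternative added after seeing the data, 3 fell in wild type after centring or quantile normalization (Sesn1, Perp and Xpc), 4 rose in MCAD-/- with probe sets averaged, 8 were higher in MCAD-/- with vehicle under array weights, and 0 passed the interaction under the stricter filter. The whole array moved too. Array weights took the genes higher in MCAD-/- with vehicle from 861 to 1695 of 8774. The genes that fell in wild type went from 2107 to 2662 after centring and 2309 after quantile normalization. With probe sets averaged 2708 of 7409 genes rose in MCAD-/-, against 3344 of 8774. Adding 16 before the log shrank changes from levels near the floor, such as the LPS change of Phlda3 in wild type (3.67 to 2.21). Dim signal limits Gadd45a, Gadd45b and Myc.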

Other observations

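Of 23 named DNA replication and mitosis genes, 8 passed the filter and 15, mitotic genes among them, stayed too dim to test. With LPS, 6 of the 8 rose and 1 fell in each genotype. Of all genes 40% and 38.1% rose and 24% and 27.6% fell. Mcm3, Mcm4, Mcm5 and Mcm6 passed the filter only through the LPS groups. Every vehicle mouse lay under 16 units for Mcm3, Mcm4 and Mcm5. For Mcm6 every wild type vehicle mouse and the median MCAD-/- vehicle mouse did. Counting these among the genes that rose therefore follows in part from the filter. Of the subunits of the replicative helicase, Mcm6 rose at least 2.79-fold in wild type and 3.02-fold in MCAD-/-, Mcm4 at least 2.20-fold and at least 2.71-fold, and Mcm3 at least 1.15-fold and at least 2.20-fold. Mcm7 rose 1.40-fold in wild type and did not pass in MCAD-/- (1.19-fold, adjusted p = 0.12). Rrm2, a ribonucleotide reductase subunit, fell by at least 3.35-fold and by 5.97-fold, while its partner Rrm1 rose in both genotypes. With LPS, Mcm3 was 1.91-fold (adjusted p = 0.00247) and Rrm1 1.52-fold (adjusted p = 0.00411) higher in MCAD-/- by limma.

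Among 15 tested growth arrest and antiproliferative genes, 4 rose and 7 fell with LPS in wild type, and 3 rose and 7 fell in MCAD-/-. Of all genes 40% and 38.1% rose and 24% and 27.6% fell. Klf6, which rose in both genotypes, passed the filter only through the LPS groups. Its median vehicle mouse in each genotype lay under 16 units, so counting it as risen follows in part from the filter. Gas6, a ligand of TAM receptors, rose 12.7-fold and 13.6-fold (3.67 and 3.77 log2, or 1.75 and 1.95 with probe sets averaged), and Gas1 fell at least 4.34-fold and at least 3.79-fold. Gas2, a cytoskeletal gene, was lower in MCAD-/- by 2.41-fold with vehicle (adjusted p = 0.00457) and 2.76-fold with LPS (adjusted p = 0.00119), or -0.65 and -0.70 log2 with probe sets averaged against -1.27 and -1.46. Tob1, an antiproliferative gene, was 1.56-fold higher in MCAD-/- with vehicle (adjusted p = 0.00419) and not with LPS (1.07-fold, adjusted p = 0.67).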
